A study of Homo sapiens with 6 samples.

Results

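The genes described here are the multidomain members of the BCL2 family, chosen by name because BCL2 is the target of venetoclax. They comprise 5 guardians (BCL2, BCL2L1, BCL2L2, MCL1 and BCL2A1) and 3 effectors (BAX, BAK1 and BOK), 8 of the 58233 genes in the count table. Polyadenylated RNA of OCI-AML2 cells, an established line from a human acute myeloid leukemia, was sequenced in 3 libraries labelled IKZF1-ko and 3 labelled NT control. IKZF1-ko cells had IKZF1, which encodes the lymphoid transcription factor Ikaros, targeted by CRISPR, and NT control cells had a non-targeting control. No drug is named for either group, although the series concerns the CDK4/6 inhibitor palbociclib and resistance to venetoclax. The design text speaks of 3 lines per group and the protocol of RNA isolated in triplicate, so the p-values may reflect only technical spread among libraries. In bulk RNA, fewer cells of a type and less RNA per cell cannot be told apart.

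BCL2 proteins decide whether the outer mitochondrial membrane is permeabilized. The effectors BAX and BAK1 form the pores through which cytochrome c escapes, and the guardians hold effectors and BH3-only proteins in check. Venetoclax occupies the BH3-binding groove of BCL2. In leukemia cells MCL1, BCL2L1 (BCL-xL) and BCL2A1 (BFL-1) are known to carry survival when BCL2 is blocked, since venetoclax does not bind them well. Much of the control of MCL1 lies in the turnover of its protein, which mRNA counts do not show.

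The libraries held 11300519 to 18214328 counts, and 13028 genes had enough counts to be tested. All 10 myeloid markers examined were among them. With the library-set term described next, 3 of these markers rose, FLT3 (log2 fold change 0.24) and CD44 (0.16) included, and LYZ (-0.36) and ITGB2 (-0.33) fell. Of all genes, 6.93% rose and 6.62% fell in that fit. The erythroid markers summed to at most 0.273 CPM (TMM-scaled counts relative to library size), and the epithelial markers EPCAM, KRT18, KRT19 and CDH1, the T cell markers CD3E and CD3G and the B cell marker MS4A1 were at 0. Other genes of these lists were expressed. The T cell list summed to 201 to 301 CPM in IKZF1-ko and 160 to 252 CPM in NT control, nearly all of it CD4, which rose (0.30, edgeR adjusted p = 3.10e-04). PDGFRB of the epithelial and fibroblast list averaged 30.6 CPM in IKZF1-ko and 21.2 CPM in NT control and rose (0.53, edgeR adjusted p = 8.03e-04), and PAX5 of the B cell list averaged 12.7 and 12.2 CPM. The part of these marker differences in the member results was not tested. IKZF1 had 421, 426 and 436 CPM in the libraries labelled IKZF1-ko, against 331, 292 and 334 CPM in NT control (log2 fold change 0.43 with the library-set term, edgeR adjusted p = 1.23e-05). Its mRNA was therefore not lower in the libraries labelled IKZF1-ko, and gene counts do not check the edit. IKZF1-ko replicate 1 and NT control replicate 2 stood apart from the other 4 libraries on the first principal component, which held 67.6% of the variance. The members were therefore fitted over all 6 libraries, over 6 with a term for this library set, and in the other 4 alone (IKZF1-ko replicates 2 and 3, NT control replicates 1 and 3). The set was read from these counts, and no label names a batch.

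The promoters of BAX and BAK1, the effectors that are detected, are shown because both genes differed between the library sets. BCL2, BCL2L1, BCL2L2 and MCL1 also differed between the sets, and their sequences are not printed. The sequences are those of RefSeq for GRCh38.p14, from 250 bases before to 50 bases after the transcript start. Capitals mark 2 kinds of short match on either strand. ACGTG and GCGTG are the core of the element bound by hypoxia-inducible factors, and GGGAA is the core recognized by Ikaros. ACGTG and its reverse complement overlap in CACGTG, which was counted once.
BAX, chr19:48954625-48954924, plus strand: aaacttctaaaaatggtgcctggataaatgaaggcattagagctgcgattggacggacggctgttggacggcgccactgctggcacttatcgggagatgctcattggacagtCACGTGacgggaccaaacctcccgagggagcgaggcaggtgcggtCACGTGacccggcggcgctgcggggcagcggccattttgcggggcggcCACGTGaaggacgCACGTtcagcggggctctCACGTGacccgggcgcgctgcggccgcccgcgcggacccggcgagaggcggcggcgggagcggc
BAK1, chr6:33580227-33580526, minus strand: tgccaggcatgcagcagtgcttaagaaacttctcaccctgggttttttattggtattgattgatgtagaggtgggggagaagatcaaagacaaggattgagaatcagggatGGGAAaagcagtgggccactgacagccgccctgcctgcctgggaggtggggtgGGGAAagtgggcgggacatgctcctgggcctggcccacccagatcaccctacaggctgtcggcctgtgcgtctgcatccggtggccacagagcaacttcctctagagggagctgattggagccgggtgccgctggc
The BAX window holds 5 separate stretches of the first kind, 4 of them CACGTG, and 0 of GGGAA. The BAK1 window holds 0 of the first kind and 2 of GGGAA. Of 35116 promoter windows of 300 bases, 48.4% hold ACGTG or GCGTG and 65.0% hold GGGAA. Of the members, 6 of 8 matched the promoter table, BCL2L1 with a pair of starts. GGGAA stood in 4 of these 7 windows and ACGTG or GCGTG in 2 of them. A match is a description of the letters, not a binding site.

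BCL2 (ENSG00000171791, GRCh38 chromosome 18, 63123346 to 63320128, minus strand) was the most abundant member by counts and the steadiest. It had 344, 326 and 339 CPM in IKZF1-ko replicates 1, 2 and 3, against 317, 348 and 328 CPM in NT control replicates 1, 2 and 3. The groups overlapped, and the coefficient of variation over the 6 libraries was 3.56%. It averaged 336 ± 9.29 CPM in IKZF1-ko and 331 ± 15.7 CPM in NT control (SD, n = 3 each). On group alone edgeR gave a log2 fold change of 0.02 (SE 0.092). With the library-set term it was 0.02 (SE 0.045, edgeR adjusted p = 0.80), with a 95% interval of -0.07 to 0.12. It was 0.04 in the 4 libraries (SE 0.043, edgeR adjusted p = 0.59).

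MCL1 (ENSG00000143384, chromosome 1, 150574551 to 150579738, minus strand), the short-lived guardian, had 207, 222 and 238 CPM in IKZF1-ko, against 224, 190 and 228 CPM in NT control. The groups overlapped, and the lowest library of each group was the one that stood apart. The log2 fold change was 0.06 (SE 0.11) from group alone, 0.06 once the library set was a term (95% interval -0.04 to 0.16, edgeR adjusted p = 0.48) and 0.02 in the 4 libraries (-0.07 to 0.12, adjusted p = 0.78).

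BCL2L1 (ENSG00000171552, chromosome 20, 31664452 to 31723989, minus strand), which encodes BCL-xL and a shorter splice form that gene counts do not separate, had 15.5, 24.3 and 27.4 CPM in IKZF1-ko, against 24.9, 16.3 and 23.8 CPM in NT control. The low libraries were again IKZF1-ko replicate 1 and NT control replicate 2. Its log2 fold change was 0.05 (SE 0.26) from group alone, 0.04 once the library set was a term (95% interval -0.15 to 0.22, edgeR adjusted p = 0.84) and 0.08 in the 4 libraries (-0.11 to 0.28). BCL2L1 shares 1424 of its 3314 exon bases with ABALON on the opposite strand, which had 0 counts in every library. Whether the counting used strand is not stated. The level of BCL2L1 and its ratios to other members are uncertain by that overlap.

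BCL2L2 (ENSG00000129473, chromosome 14, 23298790 to 23311759, plus strand), which encodes the guardian BCL-w, had 31.5, 23.5 and 23.1 CPM in IKZF1-ko, against 18.3, 24.8 and 17.1 CPM in NT control. NT control replicate 2 lay above IKZF1-ko replicates 2 and 3, and the groups overlapped over 6 libraries, while within each library set every IKZF1-ko library was the higher. In the 4 libraries 54.7% of all genes had groups that did not overlap, in either direction. On group alone the log2 fold change was 0.37 (SE 0.20, 95% interval -0.11 to 0.84). BCL2L2 rose with the library-set term (log2 fold change 0.37, SE 0.082, edgeR adjusted p = 0.0059) and in the 4 libraries (0.39, SE 0.10, adjusted p = 0.0088). With DESeq2 in the 4 libraries its adjusted p was 0.10, and without NT control replicate 3 edgeR gave 0.063, while 11 alternatives in the 4 libraries ranged from 0.0050 to 0.10. BCL2L2 shares 813 exon bases with the read-through gene BCL2L2-PABPN1 on its own strand, which had 0 to 4 counts per library, and reads in the shared exons may not have been assigned to either gene. It also shares 206 bases with PPP1R3E on the opposite strand, which had 306, 103 and 81 counts in IKZF1-ko and 40, 191 and 55 counts in NT control. Whether the counting used strand is not stated, and the BCL2L2 values are uncertain by that overlap.

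BCL2A1 (ENSG00000140379, chromosome 15, 79960889 to 79971446, minus strand), a guardian known as a target of NF-kB, was scarce. It had 1.40, 1.47 and 1.36 CPM in IKZF1-ko, against 2.21, 2.12 and 2.89 CPM in NT control. Every IKZF1-ko library was below every NT control library, a separation that 9.35% of the 13028 tested genes showed in either direction and 4.07% in this one. Those levels rest on 21, 27 and 23 reads in IKZF1-ko and 26, 31 and 33 reads in NT control, and the exact Poisson 95% interval of 27 counts runs from 17.8 to 39.3. The log2 fold change was -0.76 (SE 0.25) on group alone, with an unadjusted p of 0.021 that became 1.00 after adjustment by edgeR. It was -0.76 with the library-set term (adjusted p = 0.063) and -0.84 in the 4 libraries (adjusted p = 0.082), so BCL2A1 did not pass the test in any of the 3 fits. With no filter on low counts the library-set fit gave an adjusted p of 0.045, the lowest of 14 alternatives, and without NT control replicate 3 it gave 0.25, the highest.

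BAX (ENSG00000087088, chromosome 19, 48954815 to 48961798, plus strand), an effector and a target of p53, varied most among the abundant members. It had 48.4, 118 and 117 CPM in IKZF1-ko, against 147, 68.6 and 143 CPM in NT control. The libraries that stood apart were the lowest of their groups, and the groups overlapped over 6 libraries. Within each library set the IKZF1-ko libraries were the lower, as were 27.0% of genes in the 4 libraries. On group alone the log2 fold change of -0.34 had a 95% interval from -1.33 to 0.65. BAX fell with the library-set term (-0.36, SE 0.054, edgeR adjusted p = 2.67e-04) and in the 4 libraries (-0.31, SE 0.049, adjusted p = 5.78e-05). When 1 surrogate variable replaced that term it was -0.18 (edgeR adjusted p = 0.054), the highest adjusted p of 14 alternatives to the library-set fit, of which the lowest was 6.52e-08 (no filter on low counts).

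BAK1 (ENSG00000030110, chromosome 6, 33572547 to 33580293, minus strand), the effector that resides on mitochondria, had 26.7, 39.0 and 38.5 CPM in IKZF1-ko, against 42.4, 30.4 and 40.9 CPM in NT control. It showed the order of libraries seen in BAX at a smaller amplitude. Its log2 fold change was -0.12 (SE 0.20) from group alone, -0.13 once the library set was a term (95% interval -0.27 to 0.01, edgeR adjusted p = 0.24) and -0.11 in the 4 libraries (adjusted p = 0.39). BOK (ENSG00000176720, chromosome 2, 241551424 to 241574138, plus strand), an effector-like gene, had 0 counts in all 6 libraries. A count of 0 allows up to 3 reads, or 0.164 to 0.262 CPM per library, for counting error only. BOK did not enter any fit.

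**Figure D1:**
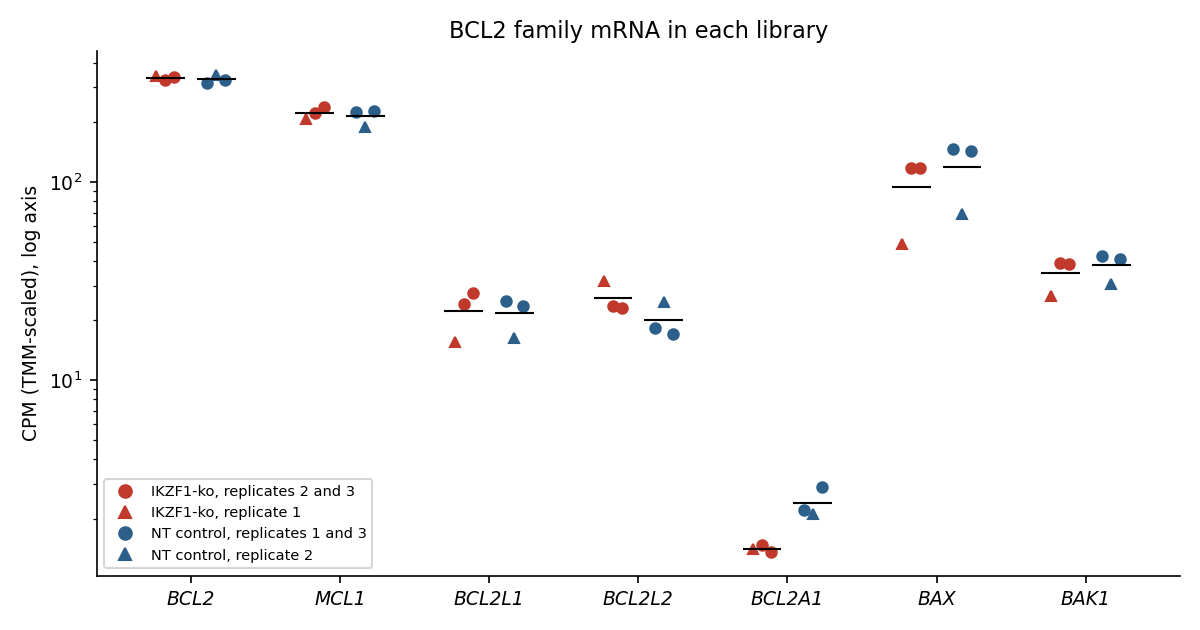
TMM-scaled CPM on a log axis for the 7 detected members, with IKZF1-ko (red) left of NT control (blue), bars at the group means and triangles for the libraries that stood apart. BCL2 and MCL1 form the upper band, BCL2A1 lies near 1.4 CPM in IKZF1-ko, and the triangles are low for BAX, BAK1 and BCL2L1 and high for BCL2L2.

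Of the 7 members tested, 0 were called on group alone, where 0 of 13028 genes passed in edgeR and 456 (3.50%) had an unadjusted p under 0.05. DESeq2 on group alone called 71 genes and limma-voom 1, none of them a member. With the library-set term 2 of 7 members passed, BCL2L2 upward and BAX downward, against 13.5% of all genes (6.93% upward and 6.62% downward). In the 4 libraries the same genes passed, against 14.7% of all genes (7.64% upward and 7.10% downward). With 7 members, nothing particular to the family is read from these counts. The median log2 fold change of the members was 0.02 with the library-set term, against 0.002 over all genes. Every IKZF1-ko library was deeper than every NT control library, so depth and group cannot be told apart in any of these fits. In a single simulated data set the fit of the 4 libraries made 20 false calls of 169.

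**Figure D2:**
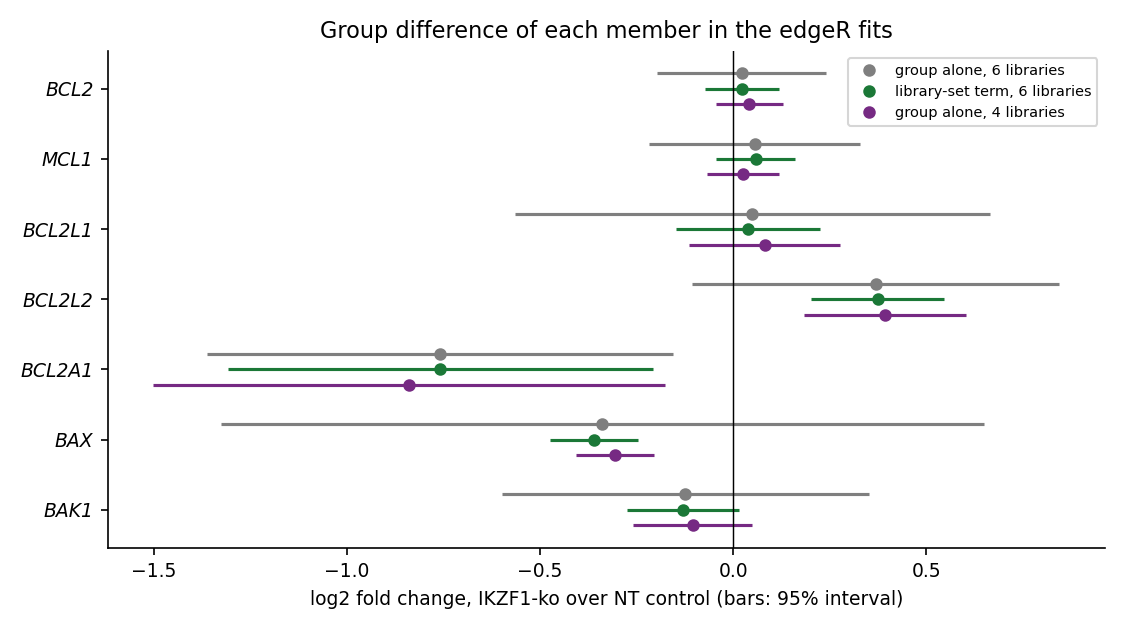
Log2 fold change of IKZF1-ko over NT control for each detected member, with 95% intervals, in the fit on group alone (grey), with the library-set term (green) and in the 4 libraries (purple). The intervals of BCL2L2 and BAX exclude 0 in the green and purple fits, those of BCL2, MCL1 and BCL2L1 lie on both sides of 0, and the BCL2A1 interval excludes 0 before adjustment over all genes.

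The members did not vary between the library sets in the same direction. BAX, BAK1, BCL2L1 and MCL1 were lower in both libraries that stood apart than in each of the other 4, as were 31.5% of all genes. BCL2 and BCL2L2 were higher in both, as were 32.5% of all genes, and BCL2A1 overlapped. BAX averaged 58.5 CPM in the set apart and 131 CPM in the other set, BCL2L1 15.9 and 25.1 CPM, and BCL2L2 28.2 and 20.5 CPM. These sets were read from the counts, so no test is given.

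Most hypoxia response genes moved with the same libraries. The list of 20 such genes, 18 of them tested, summed to 3143 and 3601 CPM in the libraries apart and to 1247 to 1460 CPM in the others. The largest parts of the sum in the libraries apart were NDRG1 (805 CPM on average), ALDOC (458 CPM) and P4HA1 (376 CPM). PFKFB3 went the other way (35.6 CPM in the libraries apart and 44.8 CPM in the others), and VEGFA and P4HA2 overlapped. The other genes of the list were higher in both libraries apart, as were 32.5% of all genes. None of the 20 was at 0 in every library. Its mean log2 level, relative to the 6 libraries, was 0.91, -0.27 and -0.30 in IKZF1-ko replicates 1, 2 and 3, against -0.57, 0.74 and -0.51 in NT control. Within each set the list was thus higher in IKZF1-ko, and 8 of its 18 tested genes rose with the library-set term while 0 fell (7 of 17 and 0 in the 4 libraries). Over all genes 6.93% rose and 6.62% fell with that term, and 7.64% and 7.10% in the 4 libraries. SLC2A3, a glucose transporter gene, led the genes of the list that rose (log2 fold change 0.74, edgeR adjusted p = 9.88e-07). In order of rising list level the libraries ran NT control 1 and 3, IKZF1-ko 3 and 2, NT control 2 and IKZF1-ko 1. BAX was lower at each step of that order except between IKZF1-ko 3 and 2, and BCL2L2 was higher at each step except between NT control 1 and 3. The part of the hypoxia list in the BAX and BCL2L2 differences was not tested.

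**Figure D3:**
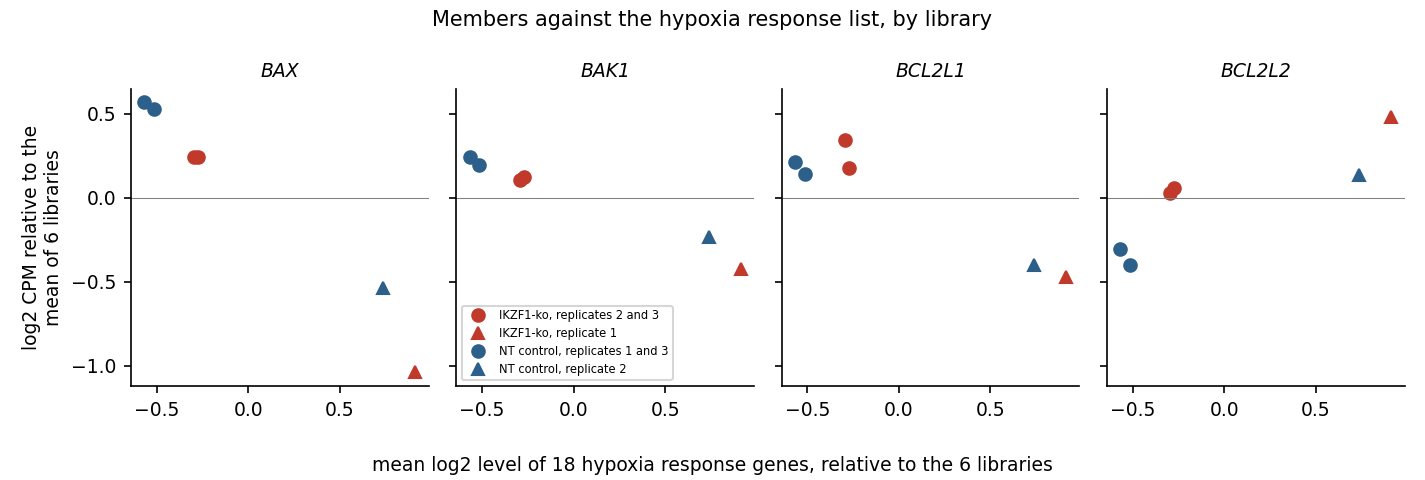
Log2 CPM of 4 members relative to their mean, against the mean log2 level of 18 hypoxia response genes, with 1 point per library, IKZF1-ko in red, NT control in blue and triangles for the libraries that stood apart. BAX runs from the upper left (NT control replicates 1 and 3) to the lower right (IKZF1-ko replicate 1, list level 0.91), and BCL2L2 runs the other way.

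Levels of different members were compared per kilobase of annotated exon. On that scale MCL1 was first, at 50.9 ± 3.62 CPM per kb in IKZF1-ko and 49.0 ± 4.83 in NT control (SD, n = 3 each). BAX followed at 36.5 ± 15.4 in IKZF1-ko and 46.2 ± 17.1 in NT control, and BCL2 at 28.6 ± 0.789 and 28.2 ± 1.33. BAK1 (15.7 ± 3.14 and 17.2 ± 2.95), BCL2L1 (6.76 ± 1.86 and 6.54 ± 1.41), BCL2L2 (6.21 ± 1.13 and 4.80 ± 0.990) and BCL2A1 (1.30 ± 0.0531 and 2.21 ± 0.387) came next in this order. The ranges over libraries overlapped between MCL1 and BAX, between BAX and BCL2 and between BCL2L1 and BCL2L2, so the order within these pairs is not settled. The place of BAX depends on the length used. With the longest coding transcript (1358 bases for BAX, 7461 for BCL2) BAX was first on average, at 69.6 CPM per kb in IKZF1-ko and 88.1 in NT control. Its range overlapped that of MCL1, which it exceeded in 5 of 6 libraries. In IKZF1-ko replicate 1 BAX (35.6 CPM per kb) was below MCL1 (52.6) and BCL2 (46.2) on this length.

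The ratio of MCL1 to BCL2, per kb of exon, was 1.62, 1.83 and 1.90 in IKZF1-ko replicates 1, 2 and 3, against 1.90, 1.47 and 1.87 in NT control. The groups overlapped, and the low library of each group was the one apart. The log2 difference was 0.03 (exact permutation p = 0.90, two-sided, n = 3 each; smallest possible 0.10). It was -0.02 in the 4 libraries and 0.14 between IKZF1-ko replicate 1 and NT control replicate 2. With the longest coding transcript the ratio ran from 1.03 to 1.34, so MCL1 exceeded BCL2 per kb in every library on both lengths.

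BCL2L1 to BCL2 was 0.160, 0.265 and 0.287 per kb in IKZF1-ko, against 0.280, 0.167 and 0.258 in NT control, a log2 difference of 0.007. BCL2L2 to BCL2 was 0.257, 0.203 and 0.191 in IKZF1-ko, against 0.163, 0.201 and 0.147 in NT control. Its log2 difference was 0.35 over 6 libraries, 0.35 in the 4 libraries and 0.36 in the pair apart (exact permutation p = 0.20 over 6 libraries).

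BCL2A1 to MCL1 was 0.0279, 0.0271 and 0.0234 per kb in IKZF1-ko, against 0.0402, 0.0454 and 0.0515 in NT control. The groups did not overlap (log2 difference -0.80, exact permutation p = 0.10, the smallest possible). BCL2A1 to BCL2 also separated the groups (-0.77, exact permutation p = 0.10). Of the 11 ratios computed, these were the pair whose groups did not overlap over 6 libraries, both share the few BCL2A1 reads, and the adjusted p over the 11 ratios was 0.55 for each.

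BAX to BCL2 ranged from 0.639 in IKZF1-ko replicate 1 to 2.11 in NT control replicate 1. It was 0.639, 1.64 and 1.58 in IKZF1-ko, against 2.11, 0.896 and 1.98 in NT control. The log2 difference of -0.39 (exact permutation p = 0.50) was -0.35 in the 4 libraries and -0.49 in the pair apart. BAX to BAK1 was 1.55, 2.58 and 2.60 in IKZF1-ko, against 2.96, 1.93 and 2.99 in NT control, so the effectors did not keep a fixed ratio. The summed guardians to the summed effectors came to 2.93, 1.47 and 1.57 per kb in IKZF1-ko, against 1.21, 2.13 and 1.27 in NT control. By counts the log2 difference of this ratio was 0.35 (exact permutation p = 0.50), and it was 0.30 in the 4 libraries and 0.44 in the pair apart. Between the library sets this ratio differed by 0.96. Those sets were read from the same counts, so that value is given without a test and is not weighed against the group difference.

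**Figure D4:**
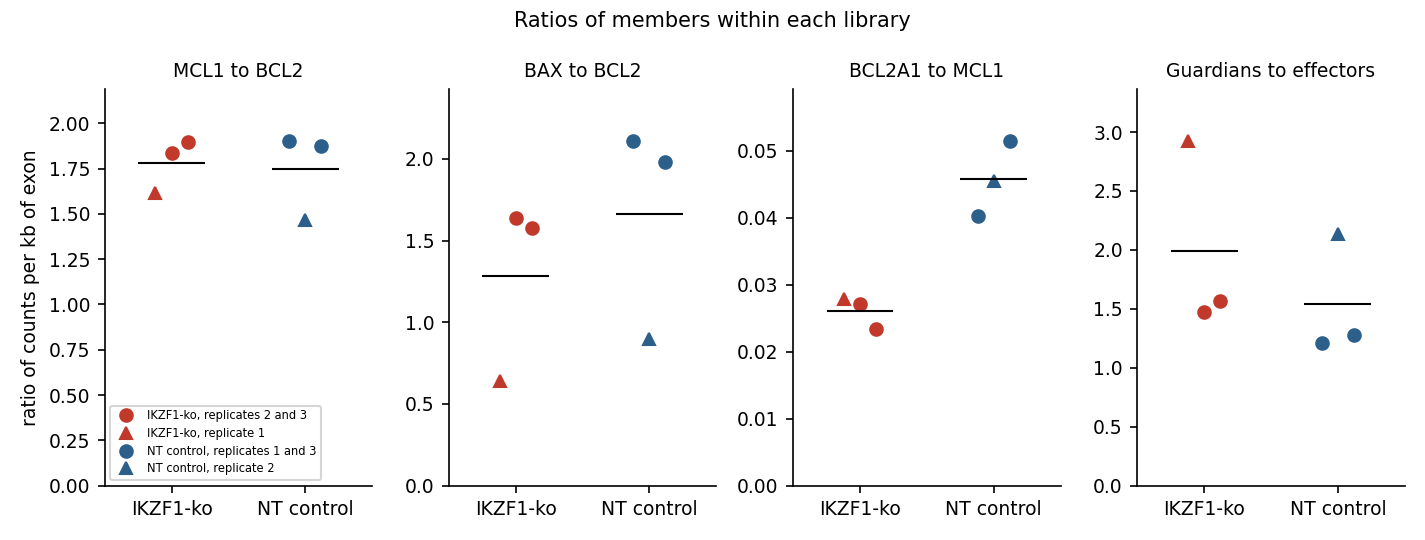
Ratios of counts per kb of exon in each library for 4 pairs, with IKZF1-ko (red) left of NT control (blue), bars at the group means and triangles for the libraries that stood apart. MCL1 to BCL2 lies between 1.47 and 1.90 with overlapping groups, BCL2A1 to MCL1 lies between 0.0234 and 0.0279 in IKZF1-ko below all NT control libraries, and the triangles are low for BAX to BCL2.

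As a share of the summed per-kb level, MCL1 made up 39.1%, 32.6% and 33.9% in IKZF1-ko replicates 1, 2 and 3, against 30.5%, 34.4% and 31.1% in NT control. BAX made up 15.5%, 29.2% and 28.2% in IKZF1-ko, against 33.8%, 21.0% and 32.9% in NT control. BCL2 ranged from 16.0% to 24.2% and BAK1 from 9.998% to 11.4% over the 6 libraries. The share of BCL2 was thus largest where that of BAX was smallest, although its own CPM varied little.

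**Figure D5:**
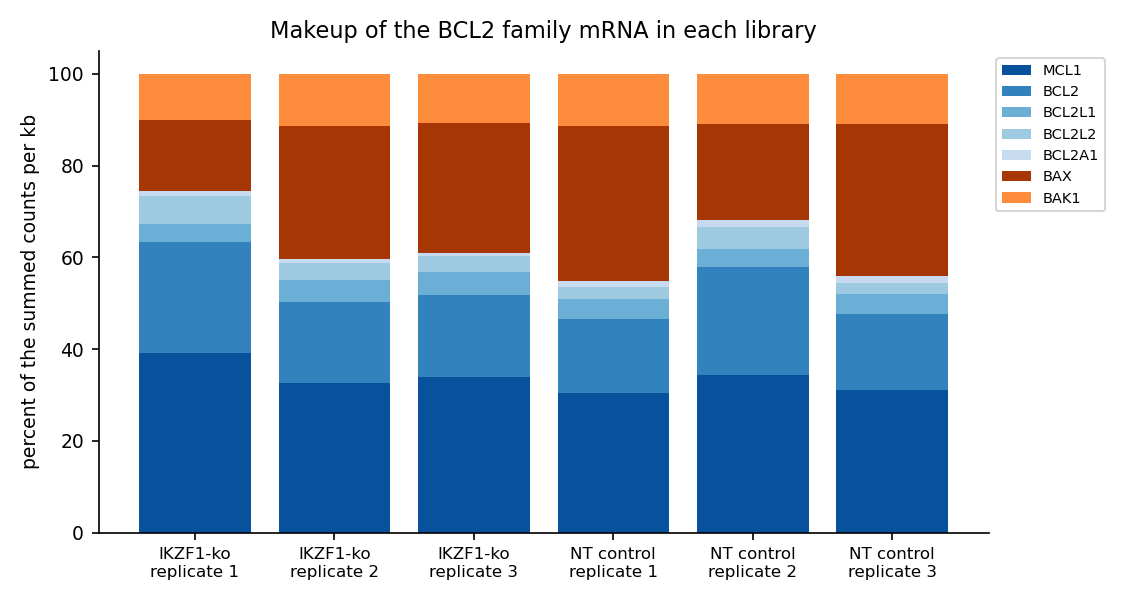
Percent of the summed counts per kb of exon held by each detected member, with 1 bar per library and the IKZF1-ko libraries left of NT control. BAX (dark orange) is the segment that changes most, at 15.5% in IKZF1-ko replicate 1 and 33.8% in NT control replicate 1, while BAK1 stays between 9.998% and 11.4%.

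Genes that act beside the members were examined by list, and calls are those of edgeR when the library set is a term. In that fit 6.93% of all genes rose and 6.62% fell. With few genes per list, nothing particular to these lists is read from the counts called. Of 6 tested BH3-only genes, which bind the guardians, 2 fell and 0 rose. BCL2L11 (BIM) was at 97.4 ± 21.9 CPM in IKZF1-ko and 112 ± 12.1 CPM in NT control (SD, n = 3 each; log2 fold change -0.22, edgeR adjusted p = 0.032), and BID had -0.20 (adjusted p = 0.040, and -0.15 with adjusted p = 0.12 in the 4 libraries). Of 13 apoptosome and caspase genes, 1 rose and 2 fell. APAF1, the scaffold of the apoptosome, rose (127 ± 1.04 CPM in IKZF1-ko and 102 ± 7.91 CPM in NT control, log2 fold change 0.33, edgeR adjusted p = 8.91e-04). CYCS, which encodes cytochrome c, fell (-0.33, adjusted p = 3.72e-04), as did AIFM1 (-0.22, adjusted p = 0.015).

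Of 7 inhibitors of apoptosis tested, BIRC5 (survivin; log2 fold change -0.26) and CFLAR (-0.22), which restrains caspase-8, fell and 0 rose. Of 12 mitochondrial channel, partner and fission or fusion genes, MTCH2 (-0.31), the receptor for BID on mitochondria, and the channel gene VDAC3 (-0.19) fell and 0 rose. Of 12 genes that act on MCL1 protein or transcription, 0 passed the test with the library-set term or in the 4 libraries. The most abundant of them were the ubiquitin ligase gene HUWE1 (-0.12, edgeR adjusted p = 0.21) and the deubiquitinase gene USP9X (0.07, adjusted p = 0.49). Of the 2 other BCL2-like genes tested, BCL2L13 (0.09) and BCL2L12 (-0.14), 0 passed with the library-set term, while BCL2L13 rose in the 4 libraries (0.18, edgeR adjusted p = 0.013). On group alone 0 genes of any of these lists passed. APAF1 also rose, and BCL2L11, CYCS, AIFM1, BIRC5, CFLAR, MTCH2 and VDAC3 also fell, in the 4 libraries. The median log2 fold changes of these lists lay between -0.09 and -0.009, against 0.002 over all genes.

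The p53 list, which holds BAX itself, had 8 of 15 genes falling and 1 rising, and 9 and 1 in the 4 libraries. The shares over all genes were 6.62% falling and 6.93% rising, and 7.10% and 7.64% in the 4 libraries. CDKN1A (-0.67), AEN (-0.55) and MDM2 (-0.38) fell with BAX, and MDM4 rose (0.26, edgeR adjusted p = 0.0037). The mean log2 level of the list was -0.68, 0.13 and 0.14 in IKZF1-ko replicates 1, 2 and 3, against 0.36, -0.29 and 0.34 in NT control. This mean includes BAX and was low in the libraries where BAX was low. BBC3 (33.5 CPM in the libraries apart and 19.8 CPM in the others), MDM4 (115 and 65.8 CPM) and SESN1 (48.6 and 45.7 CPM) averaged higher in the libraries apart. The other genes of the list averaged lower there. The summed level of the list was 703 to 1018 CPM in IKZF1-ko and 815 to 1164 CPM in NT control, and none of its genes was at 0 in every library. The part of this list in the BAX difference was not tested.

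Over the 6 libraries, the genes with the highest Pearson r of log2 CPM with BCL2 were SUPT20H (0.996), TTC3 (0.994) and TMEM14C (0.993). For MCL1 they were ANKRD13C (0.996), SCOC (0.995) and PAK2 (0.994), and for BCL2L1 TANK, ZNF639 and SLC38A2 (0.996 each). The 6 points share the division into library sets, and 1821 of 10146 genes had an r above 0.9 with BCL2L1, 676 with MCL1 and 250 with BCL2. These values therefore describe a pattern that many genes have.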

How the data were processed

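RNA-seq libraries were made with a stranded mRNA kit, per the labels' protocols. The authors deposited whole-number read counts per Ensembl gene, unscaled. Per the submitters' processing notes, Trimmomatic, STAR and the build GRCh38 were used. The read counter, its strand setting and the gene annotation are not given in the sources used. The table has 0 columns of other samples. Columns were assigned by library name and groups by title.

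Of 58233 identifiers, 57895 were found in GENCODE 29, which gave positions and exon lengths, and 57392 had a symbol. The filterByExpr function of edgeR kept 13028 genes (12951 in the 4 libraries). The test was the edgeR 4.0.16 quasi-likelihood F test in R 4.3.3 (TMM, two-sided, Benjamini-Hochberg over all tested genes, threshold 0.05). In a single simulated data set with 200 changed genes, 6 of 167 calls were false with the library-set term and 0 of 44 on group alone. In the 4 libraries 20 of 169 were false, a share above the threshold of 0.05. A single data set does not measure the error rate. The simulated counts were drawn from a fitted model with the library set, and that same set was given to the fit. The simulation therefore does not cover error from reading the set off the counts. With no gene changed, each fit made 0 calls. Of genes changed 1.25-fold, 52% were recovered with the term, 44% in the 4 libraries and 0% on group alone. Standard errors are the log2 fold change over the square root of F. The library set is the sign of the first principal component of log2 CPM (prior count 2). Since it was read from the same counts, p-values take it as known. Log2 ratios had 0.5 added to each count, and were tested with exact permutation in scipy 1.17.1. The longest-transcript lengths, the per-kb sums and the pair of libraries apart were added after the data were seen.

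Members and lists were chosen with earlier results of these data known. The genes named are all members, up to 4 per list past the threshold in the library-set fit or else the 2 most abundant, and the 3 genes nearest in pattern to BCL2, MCL1, BCL2L1 and BCL2A1 (those for BCL2A1 are not reported here). Also tried were scaling by RLE, by upper quartile or by depth only, other filters, DESeq2 1.42.0, limma-voom (limma 3.58.1), sva 3.50.0, a replicate block and leaving out each library. Intervals and floors cover counting error only.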

Additional observations from a re-analysis of the deposited data

How the results depend on the processing

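Scaling by RLE, upper quartile or library size kept every member on the same side of 0 and of the threshold in the 3 fits, and moved the median of all genes by less than 0.1 on the log2 scale. On group alone the count of genes called was 0, but 8 with no filter on low counts, 71 with DESeq2 and 1 with limma-voom, and 0 members were called in any of these. With the library-set term 1765 genes were called, against 1159 with DESeq2 and 1030 with a surrogate variable, which called 1 member (BCL2L2) in place of 2. That count ran from 811 (without IKZF1-ko replicate 3; 948 without NT control replicate 1) to 1943 when each library was left out, and 2 members were called each time. Without IKZF1-ko replicate 1 or NT control replicate 2, a single library is left in the set apart. The group difference then rests on the other 4 libraries, so those fits largely repeat the fit of the 4 libraries. In the 4 libraries 1908 genes were called, against 825 with DESeq2, which called 1 member (BAX). Leaving out each library there gave 1 to 2 members.

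Several small differences changed sign as each library was left out. On group alone the log2 fold change ran from -0.0063 to 0.060 for BCL2, -0.12 to 0.26 for BCL2L1, -0.024 to 0.11 for MCL1 and -0.26 to 0.033 for BAK1. With the library-set term BCL2L1 ran from -0.031 to 0.082. In the 4 libraries BCL2L1 ran from -0.0033 to 0.17 and MCL1 from -0.024 to 0.075. The log2 ratio difference ran from -0.086 to 0.10 for MCL1 to BCL2, -0.22 to 0.27 for BCL2L1 to BCL2 and -0.14 to 0.16 for BCL2L1 to MCL1. It ran from -0.79 to 0.050 for BAX to BCL2, -0.34 to 0.040 for BAK1 to BCL2 and -0.45 to 0.010 for BAX to BAK1, the upper ends being without IKZF1-ko replicate 1. BCL2L1 to BCL2 was -0.058 between IKZF1-ko replicate 1 and NT control replicate 2. The cause of these sign changes was not tested.

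The fit with a replicate block called 0 genes and 0 members. Deviations of same-numbered libraries correlated at -0.66 (replicate 1), -0.69 (replicate 2) and 0.59 (replicate 3). Those of IKZF1-ko replicate 1 and NT control replicate 2, the libraries that stood apart, correlated at 0.82. The values thus follow the library set, and they cannot decide whether same-numbered libraries were prepared together. BCL2A1, with its low counts, had the largest standard error of the detected members with the library-set term (0.26) and in the 4 libraries (0.32). On group alone those of BAX (0.41) and BCL2L1 (0.26) were larger than that of BCL2A1 (0.25).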
